A study of Mus musculus with 14 samples.

Results

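The cathepsins described here are 10 protease genes, Ctsa, Ctsb, Ctsd, Ctse, Ctsf, Ctsh, Ctsk, Ctsl, Ctss and Ctsz, of 27343 genes named on a mouse Agilent array. They were chosen as every array row carrying one of these gene names, which gave 16 array features, that is, distinct 60-base oligonucleotides. Ctsa had 4 features, Ctsb, Ctsd and Ctsz 2 each, and the remaining genes 1 each. RNA came from mice with floxed Rheb1 alleles crossed to Vav1-cre, in which the gene is deleted throughout the blood system, and from wild-type mice. There were 3 arrays per genotype for myeloid progenitors, 3 for myeloid cells and 1 for hematopoietic stem cells. Which cre or floxed alleles the wild-type mice carried, their strain, age and sex, and the cell surface gates are not given in the sources used here. The series asks what Rheb1 and mTORC1 do in macrophage differentiation and phagocytosis.

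Cathepsins are the main proteases of lysosomes, where they break down proteins taken up by phagocytosis, endocytosis or autophagy. Most are cysteine proteases of the papain family (Ctsb, Ctsf, Ctsh, Ctsk, Ctsl, Ctss, Ctsz). Ctsd and Ctse are aspartic proteases, and Ctsa is a serine carboxypeptidase that also shields lysosomal beta-galactosidase and neuraminidase. Macrophages are rich in them, and cathepsin S trims the invariant chain from MHC class II molecules. Rheb, the GTPase made by the deleted gene, switches on mTORC1, and mTORC1 in turn keeps TFEB and TFE3, activators of lysosomal genes, out of the nucleus.

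Since TFEB and TFE3 bind the E-box CACGTG, promoters were searched for it. RefSeq promoters of build GRCm38.p6 were at hand for 7 of the 10 genes (8 promoters, 2 of them of Ctsa). The sequences below are the 250 bases before the start of 4 genes, chosen because Ctsl and Ctsf had genotype differences that differed between cell types, Ctss had the largest difference between cell types, and Ctsd held the E-box more than once. Ctsl lies at chr13:64370521-64370770 on the minus strand, Ctsf at chr19:4854915-4855164 on the plus strand, Ctsd at chr7:142387828-142388077 on the minus strand and Ctss at chr3:95526536-95526785 on the plus strand. Capitals mark the motifs searched, on either strand.
Ctsl: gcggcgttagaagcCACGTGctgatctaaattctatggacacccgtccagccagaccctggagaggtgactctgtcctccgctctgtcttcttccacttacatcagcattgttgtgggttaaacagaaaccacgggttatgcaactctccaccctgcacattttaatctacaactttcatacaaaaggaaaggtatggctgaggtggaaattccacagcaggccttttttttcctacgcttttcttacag
Ctsf: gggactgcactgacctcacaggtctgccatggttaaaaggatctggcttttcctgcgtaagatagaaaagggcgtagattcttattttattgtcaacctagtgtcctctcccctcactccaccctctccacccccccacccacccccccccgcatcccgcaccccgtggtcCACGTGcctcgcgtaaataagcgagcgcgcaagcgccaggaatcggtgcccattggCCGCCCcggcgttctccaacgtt
Ctsd: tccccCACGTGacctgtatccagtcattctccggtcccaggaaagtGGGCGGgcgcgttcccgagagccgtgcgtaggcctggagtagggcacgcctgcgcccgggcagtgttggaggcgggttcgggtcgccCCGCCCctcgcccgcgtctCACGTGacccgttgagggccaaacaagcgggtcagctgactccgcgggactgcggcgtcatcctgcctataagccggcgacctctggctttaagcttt
Ctss: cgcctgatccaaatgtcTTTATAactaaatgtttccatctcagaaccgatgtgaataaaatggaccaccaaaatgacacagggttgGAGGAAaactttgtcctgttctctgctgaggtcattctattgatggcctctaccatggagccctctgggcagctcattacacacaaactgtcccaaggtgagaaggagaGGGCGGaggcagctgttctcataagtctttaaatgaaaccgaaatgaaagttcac

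Over windows of 300 bases, from 250 before to 50 after the start, CACGTG stood in 4 of the 8 cathepsin promoters and in 7.15% of all 32851 promoters. The 4 genes were Ctsa, Ctsd, Ctsf and Ctsl, with the match beginning at -236 in Ctsl and at -79 in Ctsf, counted in bases from the start. Ctsd held it at -245 and -98, and 1 of the 2 Ctsa promoters held it at -12 and again after the start. The longer CLEAR element, that E-box with GT before and AC after it, was in none of the 8 (0.326% of all promoters), and the AP-1 site TGANTCA was in none (7.81%). GAGGAA, the core of PU.1 and other Ets sites, was in those of Ctsk and Ctss (28.3% of all), and TATAAA in that of Ctss (13.6%). The GC box GGGCGG was in 4, those of Ctsd, Ctsf, Ctss and Ctsz (35.7%). Such matches describe the letters only.

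Levels are given below as the log2 signal of a feature minus the 75th percentile of its array, so 0 is that percentile and a difference of 1 is 2-fold. Array values are listed for replicates 1, 2 and 3 in that order, which are names without an order. Of 41174 features, 27149 entered the fit because they were well above background on every array of at least 1 replicated group, and 15 of the 16 cathepsin features were among them, all but that of Ctsk. Differences were tested in limma over all fitted features, with a Benjamini-Hochberg adjusted p under 0.05 as the threshold. Levels of different features are not comparable, since each oligonucleotide binds with its own strength, and in these bulk samples fewer cells of a type and less RNA per cell cannot be told apart. The labels tie no sample to an animal, so the p-values cover only the spread between these 3 samples per group.

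Between 58.5% and 67.6% of spots were well above background on each array, none was saturated, and replicates correlated across features at 0.987 to 0.991. The myeloid arrays of wild type were on slide 1 and those of Rheb1-/- on slide 4, so that genotype and slide cannot be told apart in myeloid cells. Each of these slides carried 1 array more, of Rheb1-/- stem cells on slide 1 and of Rheb1-/- progenitors (array 3) on slide 4. Progenitors of both genotypes met on slide 3, with arrays 2 and 3 from wild type and 1 and 2 from Rheb1-/-. The first wild-type progenitor array was on slide 2, together with wild-type stem cells. The labelled cell types were set against fixed marker lists by the log2 of each list's summed signal. Progenitor markers summed to 10.66 to 10.96 in wild-type progenitors and 9.36 to 9.65 in wild-type myeloid cells, and none of the progenitor, neutrophil or macrophage lists was absent from the cells it names. Rheb itself was at 3.82 to 4.08 in wild-type and 2.65 to 3.31 in Rheb1-/- progenitors, at 2.86 to 3.61 and 2.16 to 2.43 in myeloid cells, and at 3.51 and 2.31 on the stem cell arrays. It was lower by 0.88 ± 0.22 (SE, n = 3 per group) in Rheb1-/- myeloid cells (limma adjusted p = 0.0125). In progenitors the difference was -1.08 ± 0.22, with a limma adjusted p of 0.106, and of 0.0475 without Rheb1-/- progenitor array 1. Whether the deletion covers the site of its feature was not tested.

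Ctsl, the cysteine endopeptidase cathepsin L, was higher in Rheb1-/- than in wild-type myeloid cells. Its feature (chr13:64465287-64465346 in mm9, the build of the array annotation) read 2.61, 2.58 and 2.69 on the wild-type arrays and 3.83, 4.05 and 4.19 on the Rheb1-/- arrays. All 3 Rheb1-/- arrays lay above all 3 wild-type arrays. The difference was 1.40 ± 0.10 (SE, n = 3 per group), or 2.64-fold, with a 95% confidence interval of 1.18 to 1.61 and a limma adjusted p of 1.11e-04. Because this rise was known when the genes were chosen, the fit describes it and is no independent evidence, and the same holds for the other Ctsl comparisons that use the Rheb1-/- myeloid arrays.

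Progenitors read 2.42, 2.40 and 2.5 for Ctsl in wild type and 2.61, 2.52 and 2.58 in Rheb1-/-. The groups did not overlap but lay close together, and the difference of 0.13 (interval -0.09 to 0.34) did not pass in limma (adjusted p = 0.683). The genotype difference was larger in myeloid cells than in progenitors by 1.27 ± 0.14, or 2.41-fold (limma adjusted p = 0.00391). In wild type, myeloid cells and progenitors differed by 0.18 (limma adjusted p = 0.103), whereas in Rheb1-/- the myeloid cells were higher by 1.46, or 2.74-fold (limma adjusted p = 5.31e-07). The 3 Rheb1-/- myeloid arrays also lay above both stem cell arrays, which read 3.29 in wild type and 2.16 in Rheb1-/-.

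**Figure D1:**
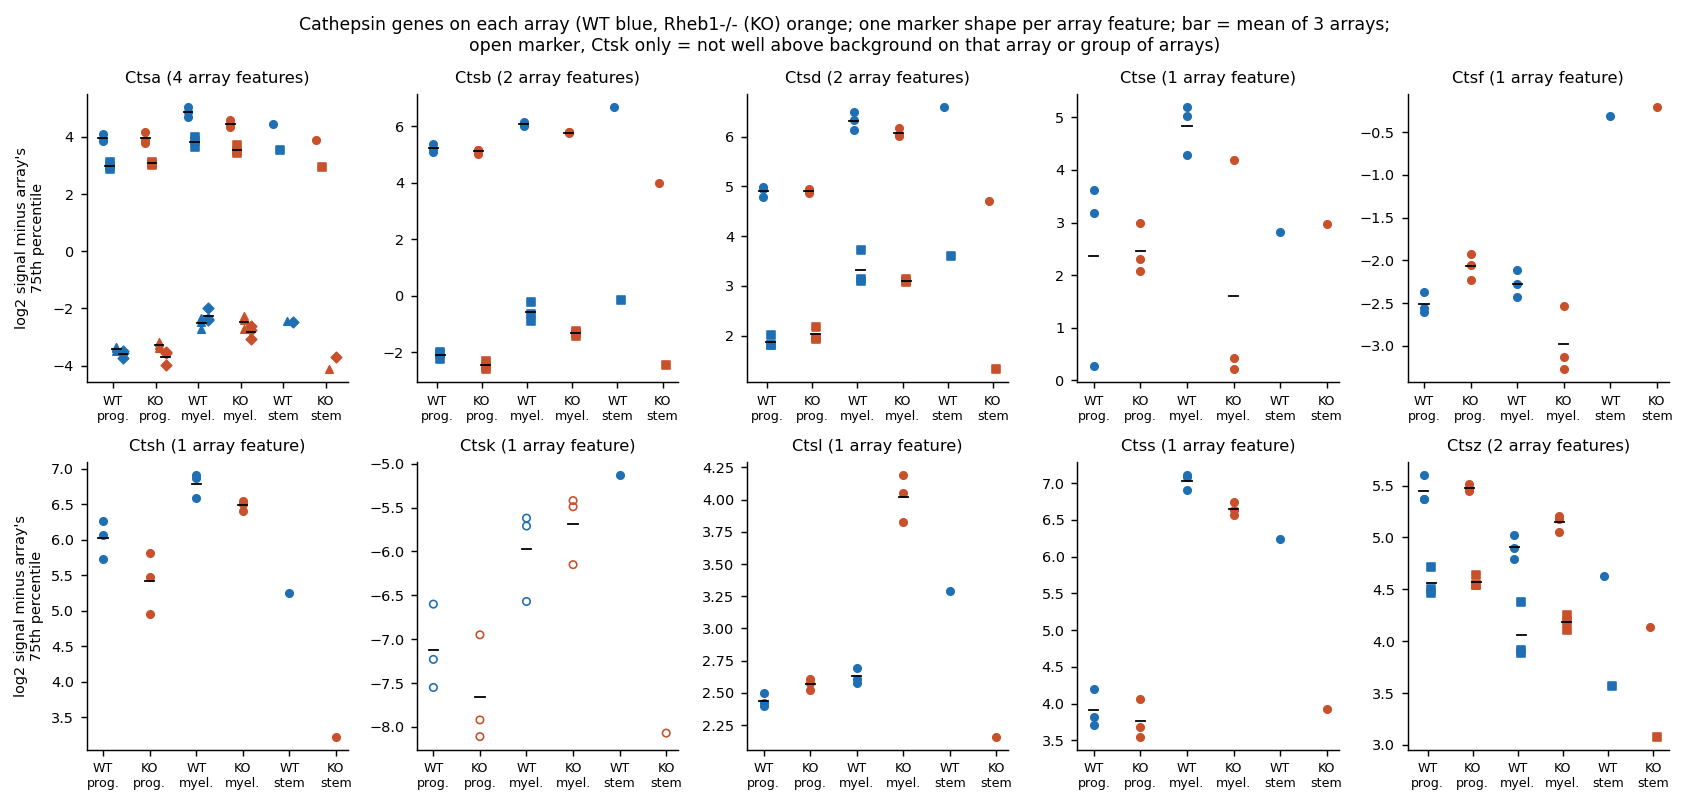
Each panel plots 1 cathepsin gene on every array as the log2 signal minus the array's 75th percentile, with wild-type arrays in blue, Rheb1-/- arrays in orange, 1 marker shape per feature and bars at the mean of 3 arrays. Ctsl stands apart in Rheb1-/- myeloid cells (3.83 to 4.19 against 2.58 to 2.69 in wild type), Ctss separates both myeloid groups from progenitors, and Ctse is spread widely within groups.

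Of the 15 fitted features, 1 was higher (Ctsl) and 6 were lower in Rheb1-/- than in wild-type myeloid cells. Over the array 31.6% of features passed in this comparison, 15.6% higher and 16% lower, and the 6 lower features came from 4 genes. The genotypes did not overlap at 10 of the 15 features, and over the array they did not overlap at 47.3%, so lack of overlap is common here. The 7 calls became 3 without Rheb1-/- myeloid array 2 or 3, 4 without Rheb1-/- myeloid array 1 or wild-type myeloid array 1 or 3, and 3 with no filter on dim features. The median difference of the 15 was -0.29, against -0.06 over all features. The lower features belonged to Ctsa, Ctsb, Ctse and Ctsf.

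Ctsb encodes a cysteine protease that cuts within proteins and also removes dipeptides from their ends, and both of its features fell. Feature 2 (chr14:63764131-63764190) read -0.21, -0.63 and -0.90 in wild-type and -1.24, -1.32 and -1.42 in Rheb1-/- myeloid cells, without overlap. It fell by 0.75 ± 0.16, or 1.68-fold (limma adjusted p = 0.00645), and passed in each fit that left out 1 array. Feature 1 (chr14:63761906-63761965) read 6.04, 6.16 and 5.99 against 5.79, 5.74 and 5.78 and fell by 0.29 ± 0.09, or 1.22-fold (limma adjusted p = 0.0389). All 3 Rheb1-/- arrays were below the wild-type arrays at this feature as well. Its call was lost without any 1 of the 6 myeloid arrays, wild-type progenitor array 1 or Rheb1-/- progenitor arrays 1 or 3 (limma adjusted p from 0.0510 to 0.127).

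Ctsf encodes cathepsin F, a lysosomal cysteine protease with a long cystatin-like propeptide. Its feature (chr19:4860454-4860513) read -2.43, -2.28 and -2.11 in wild-type and -2.53, -3.13 and -3.27 in Rheb1-/- myeloid cells. The groups did not overlap, although Rheb1-/- array 1 lay just under the lowest wild-type array. Ctsf fell by 0.70 ± 0.18, or 1.63-fold (limma adjusted p = 0.0150), and missed the threshold without wild-type myeloid array 3 (adjusted p = 0.0541) or Rheb1-/- myeloid array 2 (0.0539) or 3 (0.0559).

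Progenitors differed from this at Ctsf, reading -2.60, -2.37 and -2.56 in wild type and -1.93, -2.05 and -2.23 in Rheb1-/-, with the Rheb1-/- arrays the higher. That difference of 0.43 ± 0.18 did not pass in limma (adjusted p = 0.400). The genotype difference in myeloid cells minus that in progenitors was -1.14 ± 0.26, or 2.20-fold (limma adjusted p = 0.0264). It missed the threshold on leaving out wild-type progenitor array 1, Rheb1-/- progenitor arrays 1 or 2, wild-type myeloid arrays 2 or 3, or Rheb1-/- myeloid arrays 2 or 3 (limma adjusted p from 0.0532 to 0.0620). Only Ctsl and Ctsf, of 15 cathepsin features, passed for a genotype difference that differed between the cell types, 1 in each direction. In this comparison 9.4% of all features passed, 4.6% higher and 4.8% lower. The share of higher features among those calls was 48.9% here and 64.1% after quantile normalization.

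Ctsa, the serine carboxypeptidase, was read by 4 features on chromosome 2, of which 2 passed as lower in Rheb1-/- myeloid cells. Feature 1 (chr2:164664789-164664848) read 4.87, 5.03 and 4.70 in wild type and 4.44, 4.60 and 4.34 in Rheb1-/-, a fall of 0.40 ± 0.13, or 1.32-fold (limma adjusted p = 0.0375). Feature 4 (chr2:164666433-164666492) read -1.97, -2.41 and -2.38 against -3.08, -2.74 and -2.61, a fall of 0.56 ± 0.18, or 1.47-fold (limma adjusted p = 0.0361). Neither pair of groups overlapped. Feature 2 (chr2:164664388-164664447) read 4.0, 3.87 and 3.64 against 3.52, 3.70 and 3.45 and overlapped (difference -0.28, limma adjusted p = 0.0893, and 0.0379 without wild-type myeloid array 3). Feature 3 (chr2:164659791-164659850), annotated to a separate transcript, read -2.34, -2.46 and -2.70 against -2.42, -2.72 and -2.25, with a difference of 0.03 (limma adjusted p = 0.865).

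Features 1 and 4 of Ctsa thus passed as lower, feature 2 was lower without passing, and feature 3 barely differed. The call at feature 1 was lost without wild-type myeloid arrays 1 or 2 or Rheb1-/- myeloid arrays 1 or 3 (limma adjusted p from 0.0745 to 0.127), and that at feature 4 without wild-type myeloid arrays 1 or 3 or Rheb1-/- myeloid arrays 1 or 2 (0.0536 to 0.113). With quantile normalization neither passed (limma adjusted p = 0.0556 and 0.0968).

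The remaining cathepsins did not pass in this comparison. Ctss read 7.11, 7.08 and 6.91 in wild-type and 6.63, 6.57 and 6.75 in Rheb1-/- myeloid cells (chr3:95360162-95360221). The groups did not overlap, and the difference was -0.38 (interval -0.73 to -0.03, limma adjusted p = 0.0879). It passed with quantile normalization (-0.61, limma adjusted p = 0.0156) and in the deposited value table (-0.60, limma adjusted p = 0.0166). Judging by its columns, that table was also quantile normalized. In 19 of 23 alternatives Ctss did not pass. For Ctsd, the main aspartic protease of lysosomes, feature 1 (chr7:149561962-149562021) read 6.33, 6.13 and 6.49 against 6.03, 6.17 and 6.01 and overlapped. Its difference of -0.25 (limma adjusted p = 0.0979) passed with quantile normalization (-0.37, limma adjusted p = 0.0298) and without wild-type myeloid array 2 (adjusted p = 0.0422). Feature 2 of Ctsd (chr7:149562628-149562781) read 3.73, 3.1 and 3.13 against 3.07, 3.1 and 3.13, where wild-type array 1 stood above 5 close arrays (difference -0.22, limma adjusted p = 0.305).

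Ctsh, an aminopeptidase, read 6.87, 6.91 and 6.59 in wild-type and 6.55, 6.41 and 6.51 in Rheb1-/- myeloid cells (chr9:89970828-89970887). The groups lay close without overlapping (difference -0.30, interval -0.76 to 0.16, limma adjusted p = 0.297). Ctsz, a carboxypeptidase also called cathepsin X, had 2 features on chromosome 2 that leaned the other way. Feature 1 (chr2:174253228-174253287) read 5.02, 4.79 and 4.90 against 5.05, 5.21 and 5.18, and feature 2 (chr2:174254084-174254143) read 4.38, 3.91 and 3.89 against 4.11, 4.25 and 4.19. Feature 2 overlapped between genotypes and feature 1 did not. Their differences were 0.24 (limma adjusted p = 0.0746, and 0.0494 without wild-type myeloid array 1) and 0.13 (0.50).

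**Figure D2:**
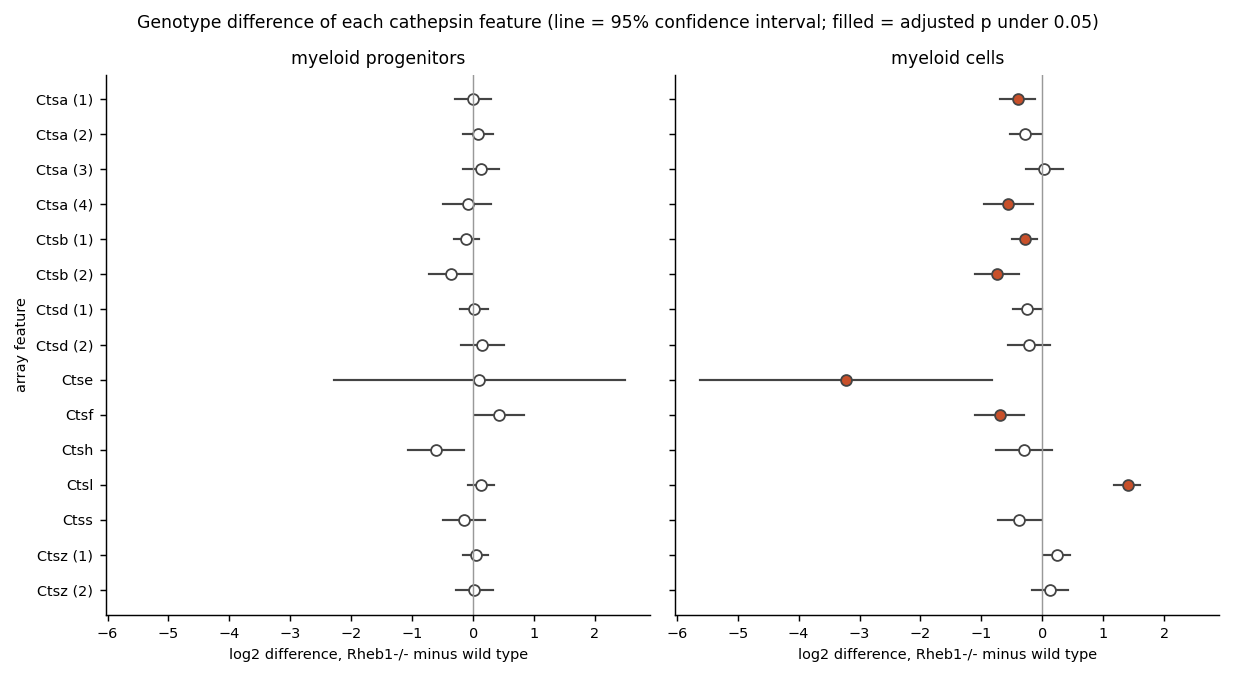
Genotype differences (log2, Rheb1-/- minus wild type) of the 15 fitted cathepsin features in progenitors and in myeloid cells, with 95% confidence intervals as lines and filled points where the limma adjusted p was under 0.05. No point is filled in progenitors, and in myeloid cells Ctsl lies at 1.40 while 6 filled points lie below 0.

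Markers of several other cell types moved with genotype in the myeloid samples, where 15.6% of all features were higher and 16% lower in Rheb1-/-. Of 9 fitted progenitor markers 7 were higher and none lower in Rheb1-/- myeloid cells, and the log2 of their summed signal was 9.36 to 9.65 in wild type and 10.16 to 10.61 in Rheb1-/-. Erythroid markers were lower (6 of 8, with sums of 9.53 to 10.21 against 6.69 to 8.83), as were B cell markers (5 of 7, 3.61 to 4.62 against 2.76 to 3.20). Of 8 T and NK cell markers 5 were lower and 1 higher, and their sums of 4.41 to 4.81 against 5.38 to 5.90 followed Nkg7, the higher one, with means of 4.33 and 5.60 where the other 7 had means of 1.41 or less. Nkg7 had a mean of 7.35 in wild-type progenitors. Megakaryocyte markers were lower (4 of 7, with sums of 1.46 to 2.27 against 0.21 to 1.15). Stem cell markers summed to 4.30 to 4.59 against 3.77 to 3.86, with 2 of 10 higher and 1 lower, near the shares of all features. Monocyte and macrophage markers gave overlapping sums (7.83 to 7.99 against 7.76 to 8.04), with 9 of 16 lower, Csf1r, C1qa and Mertk among them, and 2 higher, Cd14 and Vcam1. Neutrophil markers summed to 11.83 to 11.97 against 11.50 to 11.78, with 2 of 11 lower, near the share of all features. The part of these cell types in the cathepsin differences was not tested.

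Ctse, an aspartic protease of endosomes, was the least even of the genes. Its feature (chr1:133571935-133571994) read 5.19, 4.29 and 5.02 in wild-type and 4.19, 0.43 and 0.22 in Rheb1-/- myeloid cells, so that 2 of the 3 Rheb1-/- arrays were far lower and array 1 lay just below wild type. Progenitors read 3.61, 0.27 and 3.19 in wild type and 2.08, 2.30 and 2.99 in Rheb1-/-, and here a wild-type array was the low one. The stem cell arrays read 2.83 and 2.97.

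The myeloid difference of Ctse was -3.22 ± 1.08 (interval -5.62 to -0.83), or 9.34-fold, with a limma adjusted p of 0.0442. Without any 1 of wild-type progenitor array 3, the 3 Rheb1-/- progenitor arrays, the 3 wild-type myeloid arrays or Rheb1-/- myeloid arrays 2 or 3 the call was lost (adjusted p from 0.0524 to 0.147), and without Rheb1-/- myeloid array 1 the difference was -4.51 (adjusted p = 0.00476). The myeloid genotype difference of Ctse minus that in progenitors was -3.33 ± 1.52 (interval -6.72 to 0.06). With this wide interval it did not pass (limma adjusted p = 0.183), except without Rheb1-/- myeloid array 1 (-4.62, adjusted p = 0.0347).

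To see which other features followed the 3 low arrays, each feature's deviations from its 4 group means were correlated with those of Ctse over the 12 replicated arrays. This comparison was chosen after the values of Ctse were seen. Among the 20 features most like it of 27148 were Ren2 (r = 0.962), Hey1 (0.951), Ren1 (0.951), Iglv1 (0.950), Plekha6 (0.948), Traf3 (0.938) and Sox13 (0.938). Iglv1, an immunoglobulin light chain gene of B cells on chromosome 16, gave 5 of the 20 features, and B cell markers were lower in Rheb1-/- myeloid cells as given above. Ren1 and Ren2 encode renins, Sox13 is a transcription factor, and the near-identical renin transcripts may share features. Ren1 (chr1, position 135256659), Plekha6 (135199668), Sox13 (135278993) and 1 further feature made 4 of 19 with a coordinate that lie on chromosome 1, as Ctse does, where 6.08% of all features do. Ren1 read -4.51 on wild-type progenitor array 2 and -5.65 and -7.07 on Rheb1-/- myeloid arrays 2 and 3, against -2.71 to -0.38 on the other 9. Ren2 is known to be present in some mouse strains and absent from others. The parts of B cells and of strain background in the Ctse difference were not tested, and the strains are not given in the sources used here.

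**Figure D3:**
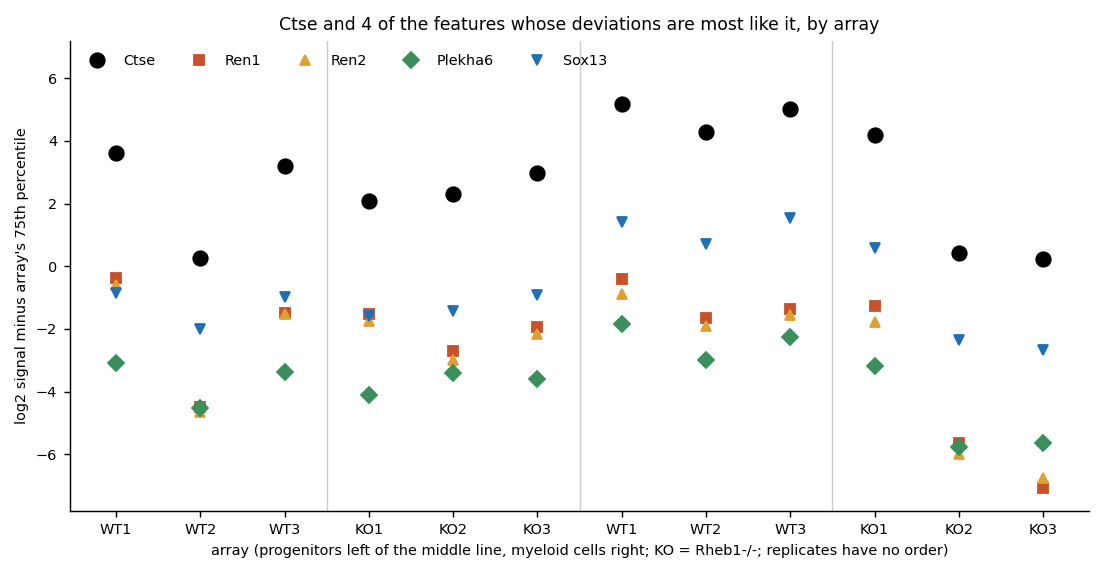
Signals (log2 minus the array's 75th percentile) of Ctse, Ren1, Ren2, Plekha6 and Sox13 on each of the 12 progenitor and myeloid cell arrays, where replicates have no order. Within each cell type all 5 features are lowest on wild-type progenitor array 2 and on Rheb1-/- myeloid arrays 2 and 3, where Ctse reads 0.27, 0.43 and 0.22.

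No cathepsin passed between the genotypes in progenitors. In limma 0 of 15 features did so (3 of 15 at an unadjusted p under 0.05), where 0.0921% of all features passed and 11.3% had an unadjusted p under 0.05, and the median difference was 0.02. The genotypes did not overlap at 3 of the 15, against 19.2% of all features. Ctsh had the largest difference of the 15, reading 6.27, 5.73 and 6.07 in wild type and 5.82, 4.96 and 5.47 in Rheb1-/-. These groups overlapped, and the difference of -0.61 ± 0.21 had a limma adjusted p of 0.312. Within slide 3, which held 2 progenitor arrays of each genotype, Ctsh differed by -0.51, Ctsf by 0.47 and Ctsl by 0.11. Ctss read 3.82, 3.71 and 4.20 in wild type and 4.06, 3.55 and 3.68 in Rheb1-/-, and the groups overlapped (difference -0.15, interval -0.49 to 0.20).

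More cathepsin features differed between cell types than between genotypes, as did features at large. In wild type 10 of 15 features were higher and 2 lower in myeloid cells than in progenitors, in a comparison in which 76.9% of all features passed (38.8% higher and 38.1% lower), and the median was 0.90 against 0.04 over all features. Quantile normalization shifted the median of all features by -0.12. Ctss had the largest difference. Its progenitor arrays were at 3.71 to 4.20 and its myeloid arrays at 6.91 to 7.11, a rise of 3.12 ± 0.16, or 8.71-fold (limma adjusted p = 4.54e-08). Ctsd followed with rises of 1.41 and 1.45 at its 2 features, the first going from 4.98, 4.78 and 4.95 in progenitors to 6.33, 6.13 and 6.49 in myeloid cells. Ctsb rose by 0.85 and 1.5, Ctsa by 0.91, 0.84, 0.90 and 1.33, and Ctsh by 0.77.

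Ctsz ran against the others, with both features lower in wild-type myeloid cells than in progenitors. Feature 1 read 5.37, 5.60 and 5.37 in progenitors and fell by 0.54 ± 0.09, or 1.46-fold (limma adjusted p = 3.80e-04), and feature 2 fell by 0.49. The features that did not pass were those of Ctsl, Ctsf (0.23, limma adjusted p = 0.261) and Ctse (2.48, adjusted p = 0.0565). Ctse passed without wild-type progenitor array 1 (limma adjusted p = 0.0371) or Rheb1-/- myeloid array 1 (0.0130). Wild-type myeloid arrays share no slide with wild-type progenitor arrays, so cell type and slide cannot be told apart in this comparison.

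In Rheb1-/- 11 of 15 features were higher and 3 lower in myeloid cells, where 68.1% of all features passed (30.4% higher and 37.7% lower), and the median was 0.81 against -0.08. Ctss rose by 2.89 ± 0.16, or 7.39-fold (limma adjusted p = 1.63e-07), from 3.55 to 4.06 in progenitors to 6.57 to 6.75 in myeloid cells. Ctsd rose by 1.16 and 1.07, Ctsb by 0.67 and 1.13, Ctsh by 1.07, and Ctsa by 0.51, 0.49, 0.81 and 0.87. Ctsl joined them here, and Ctsf fell by 0.91 (limma adjusted p = 0.00117). Both Ctsz features fell, by 0.33 and 0.39. The second missed the threshold without Rheb1-/- progenitor array 1 (limma adjusted p = 0.0723) or without Rheb1-/- myeloid arrays 1 (0.0717) or 3 (0.0510). Ctse did not pass (-0.85, limma adjusted p = 0.505), except without Rheb1-/- myeloid array 1 (-2.14, adjusted p = 0.0481).

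Slide 4 held both Rheb1-/- cell types, and a fit of all 14 arrays with slide as a term left Ctsl at 1.45 (limma adjusted p = 1.37e-04) and Ctss at 2.97 in Rheb1-/-. Both Ctsz features lost their call in it (limma adjusted p = 0.0830 and 0.176).

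Ordered by level over the 6 groups, most features were higher in myeloid cells and on the wild-type stem cell array than in progenitors. Ctsb was highest on the wild-type stem cell array at both features, followed by wild-type and then Rheb1-/- myeloid cells, none of which overlapped. For Ctsd the wild-type stem cell array was highest at feature 1, with overlapping myeloid groups, and at feature 2 it fell within the range of wild-type myeloid cells. Ctss was highest in wild-type myeloid cells, then Rheb1-/- myeloid cells, then wild-type stem cells, with no overlap between these neighbours, and the Rheb1-/- stem cell array could not be told from the progenitor arrays. Ctsl was highest in Rheb1-/- myeloid cells, then in wild-type stem cells, and wild-type myeloid cells overlapped Rheb1-/- progenitors. Ctsf alone was highest on both stem cell arrays (-0.31 and -0.21), and Ctsz alone was highest in progenitors, where the genotypes overlapped at both features. The features of a gene ran together over the 14 arrays, with correlations of 0.793 to 0.972 among those of Ctsa, 0.880 for Ctsb, 0.960 for Ctsd and 0.978 for Ctsz, arrays that share their scaling.

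On the single stem cell arrays most cathepsins were lower in Rheb1-/- than in wild type. With 1 array each there is no test, and the arrays lay on different slides that were scanned on different days. All 15 fitted features were well above background on both arrays, and 9 were at least 2-fold lower in Rheb1-/-, where 5.74% of 25973 features were. None was at least 2-fold higher, against 4.64%. The 9 were both features of Ctsb and of Ctsd, features 3 and 4 of Ctsa, and those of Ctsh, Ctsl and Ctss. Features 1 and 2 of Ctsa differed by -0.54 and -0.59, and the dim features 3 and 4 by -1.67 and -1.19. Feature 4 ran from -1.31 to -0.83 under other processing. Ctsb feature 1 read 6.66 and 3.99, a difference of -2.67 or 6.36-fold, and feature 2 differed by -2.31. Ctss read 6.24 and 3.93 (4.94-fold lower), Ctsd 6.59 and 4.70 at feature 1, Ctsh 5.25 and 3.23, and Ctsl 3.29 and 2.16 (2.18-fold lower). The Rheb1-/- values of Ctss and Ctsd were near those of progenitors and the wild-type values nearer those of myeloid cells. Ctse (0.14), Ctsf (0.09) and Ctsz (-0.49 at both features) differed little.

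Macrophage markers moved with these stem cell values. The log2 of their summed signal was 8.28 on the wild-type stem cell array, above the 7.83 to 7.99 of wild-type myeloid cells, and 5.27 on the Rheb1-/- one, and 15 of 16 were lower in Rheb1-/-. C1qa read 4.97 and -0.01, C1qc 5.59 and 0.76, Vcam1 6.23 and 1.80, and only Ccr2 was higher in Rheb1-/- (0.23 and 0.66). Erythroid markers summed to 6.35 and 3.84, and eosinophil, basophil and mast cell markers to 7.71 and 5.2. B cell markers summed to 5.87 and 4.48, and neutrophil markers to 10.12 and 9.16. Progenitor markers (9.18 and 9.72) and T and NK cell markers (5.19 and 5.56) went the other way. Stem cell markers summed to 5.52 and 5.78, against 3.77 to 4.59 in the progenitor and myeloid groups. Their part in the cathepsin values was not tested.

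**Figure D4:**
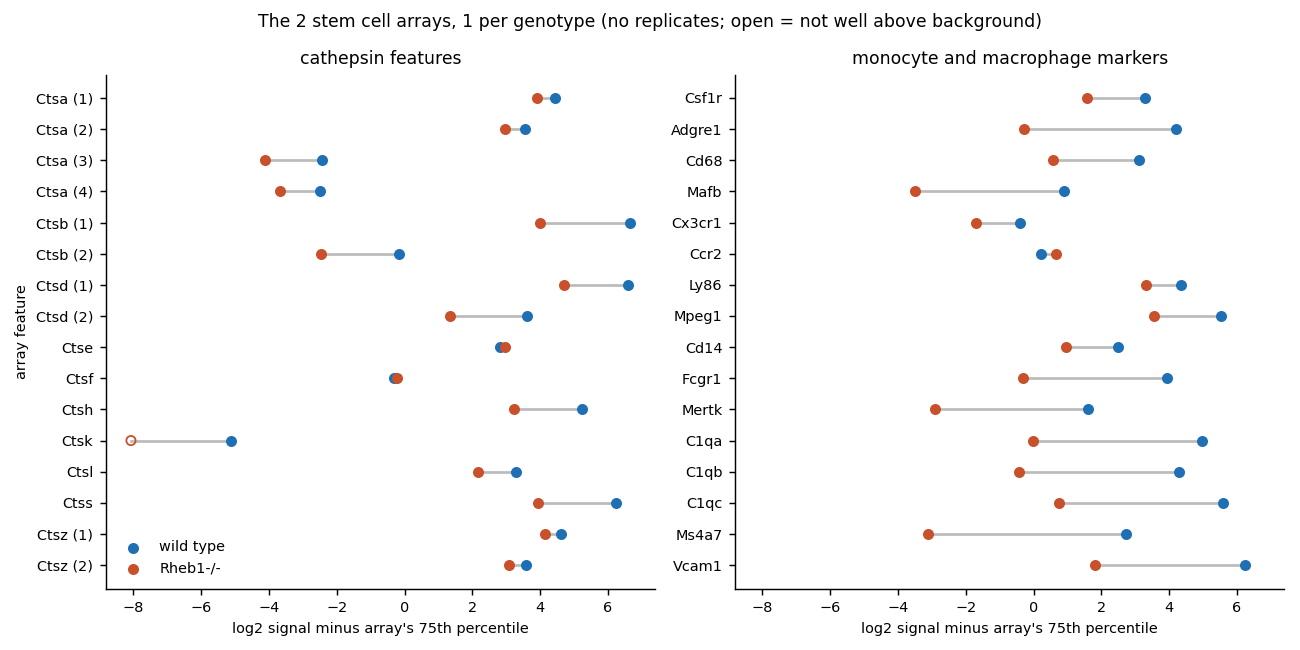
Signals (log2 minus the array's 75th percentile) of the 16 cathepsin features and of 16 monocyte and macrophage markers on the 2 stem cell arrays, wild type in blue and Rheb1-/- in orange, with no replicates. Ctsb, Ctsd, Ctsh and Ctss are lower on the Rheb1-/- array, as are 15 of the 16 markers, while Ctse and Ctsf are nearly equal.

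Ctsk, the collagen-degrading protease of osteoclasts, was at the edge of measurement. Its feature (chr3:95310647-95310891) was well above background on 1 of 14 arrays, that of wild-type stem cells, at -5.13. There it stood 1.86-fold above the weakest signal measured above background on the Rheb1-/- stem cell array. This is no lower bound on the difference, since Ctsk was not well above background at up to -5.42 on other arrays. On the 12 replicated arrays it was not well above background, with signals of -8.11 to -5.42, and no difference was tested.

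The partners of the cathepsins were read from 6 lists holding 70 fitted genes. In progenitors none of the 70 passed in limma (4 at an unadjusted p under 0.05), and the genes of smallest p were Scpep1 (-0.44, adjusted p = 0.290), Stfa1 (0.93, 0.434), Psap (-0.39, 0.507), Mitf (0.94, 0.326), H2-DMa (-0.36, 0.578) and Ctsm (-0.16, 0.856). In myeloid cells 19 of 70 passed, where 31.6% of all features did, 15.6% higher and 16% lower, so these genes passed no more often than features at large.

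Among 10 other lysosomal and granule proteases, 2 were higher and 1 lower in Rheb1-/- myeloid cells, and the median difference was -0.07 where that of all features was -0.06. Ctsg, the serine protease cathepsin G of neutrophil granules and also one of the progenitor markers above, had a mean of 7.16 in wild type and 8.55 in Rheb1-/-. It rose by 1.38 ± 0.16, or 2.61-fold (limma adjusted p = 4.82e-04), and its genotype difference differed between cell types (1.24, limma adjusted p = 0.0155). Ctsw fell by 0.93 (limma adjusted p = 0.0264) and Napsa, an aspartic protease, rose by 0.32 (0.0480). Of 8 placental cathepsins only Ctsm was fitted, and it did not pass.

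Of 16 fitted protein inhibitors of cathepsins, 1 was higher and 4 lower, with a median of -0.55. Cst7, the cystatin-family inhibitor cystatin F, rose by 1.51 ± 0.14, or 2.84-fold (limma adjusted p = 2.56e-04), and its genotype difference differed between cell types (1.26, limma adjusted p = 0.0106). The stefins Stfa2l1 (-1.15, limma adjusted p = 0.00923) and Stfa2 (-0.93, adjusted p = 0.0175) fell. The protease Ctsl and the inhibitor Cst7 thus rose in the same samples, but their levels in progenitors differed. Cst7 had means of 5.40 in wild-type and 5.65 in Rheb1-/- progenitors, above its 2.44 and 3.95 in myeloid cells. Ctsl had means of 2.44 and 2.57 in progenitors and 2.62 and 4.02 in myeloid cells. A link between the 2 rises was not tested.

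Sorting receptors and adaptors that carry cathepsins to lysosomes were mixed, with 2 of 12 higher and 4 lower (median -0.23). Gga2, an adaptor, rose by 0.63 (limma adjusted p = 0.00546), while Gga3 fell by 0.31 (0.00944) and Nagpa, which uncovers the mannose 6-phosphate tag, fell by 0.40 (0.0144). Of 21 genes for MiT/TFE factors and other lysosomal components 2 were higher and 2 lower, with a median of -0.07. Gla, alpha-galactosidase A, rose by 0.75 (limma adjusted p = 0.00197), and the factor Tfec rose by 0.95 (0.00239). In wild type, Gga2, Gla and Tfec had means of 2.79, 2.38 and 1.77 in progenitors, above their 0.77, 0.79 and -0.36 in myeloid cells. Gga3 and Nagpa, which fell, had means of 2.38 and 0.54 in wild-type progenitors, below their 2.93 and 1.12 in wild-type myeloid cells. Among 10 MHC class II processing genes 1 passed, H2-DMb2, which fell by 0.95 (limma adjusted p = 0.00238), and the median was -0.61.

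Across cell types in wild type, 8 of these 10 class II genes were higher and 1 lower in myeloid cells (median 2.26), where 38.8% of all features were higher and 38.1% lower. Ctss, which acts with them, was also higher.

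Features were ranked by likeness to Ctsl in pattern over the 14 arrays, among 21730 above background on all of them. Only genes with an official symbol were kept, with 1 feature each. The 5 most like Ctsl were those of Zdhhc2 (r = 0.917), Atf3 (0.904), Fosl1 (0.903), Csrnp1 (0.901) and Lbx2 (0.891). These correlations are over arrays that share their scaling. As the features were picked for following Ctsl, its rise in Rheb1-/- myeloid cells included, their genotype differences restate the choice and are given without a test. In myeloid cells these were 1.96 for Atf3, a stress-induced transcription factor, 3.09 for Fosl1, an AP-1 subunit, and 1.21 for Zdhhc2, a palmitoyltransferase. They were 1.00 for Csrnp1 and 0.75 for Lbx2. In progenitors Atf3 (-0.80) and Fosl1 (-0.29) did not share the sign of Ctsl.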

How the data were processed

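Total RNA of 14 samples was Cy3-labelled and hybridised to Agilent 1-colour arrays, as the labels' protocols state. The intensity used was the processed signal, background-subtracted and detrended within each array, per the file headers. The headers name Feature Extraction 10.7.3.1 and the submitters' processing notes 9.1. The deposited value table holds log2 values, used as an alternative. It was quantile normalized judging by its columns, and the sources used here do not give its background treatment.

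Of 45018 spots per array, 1639 controls were left out, as were outlier spots, and spots of a feature were averaged. Genes were named through accession or symbol in a RefSeq table, used with its sequences from GRCm38.p6. Feature coordinates are mm9, as deposited. Levels are log2 of that intensity less the 75th percentile of the array. Features were fitted in limma 3.58.1 (R 4.3.3) with 1 mean per group over 12 arrays (8 residual and 2.11 prior degrees of freedom) and adjusted over 27149 features per contrast, two-sided. The fit was tested on simulated data. The stem cell arrays had no test. Few arrays limit the precision.

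All features of the 10 genes are named, with Rheb, up to 3 passing genes of smallest p per list, and the 5 genes with an official symbol most like Ctsl. A gene that this rule takes is not reported here. The members and lists were chosen with earlier results of these data known. Alternatives were normexp, quantile normalization, the deposited table, other filters, 1 feature per gene, replicate and slide blocks, subsets of arrays, other spread models and each array left out.
Samples were not paired by replicate number in the main fit. Deviations of same-numbered samples correlated at -0.16 to 0.13, as did those of other samples. With 3 arrays per group this cannot tell whether same-numbered samples share an animal.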

Additional observations from a re-analysis of the deposited data

Results flagged for a closer look

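For 2 cathepsin features the genotype difference differed between cell types by the interaction test in limma. For Ctsl the difference in myeloid cells exceeded that in progenitors by 1.27 on the log2 scale (adjusted p = 0.00391). All 3 Rheb1-/- myeloid arrays were above the 3 wild-type ones. This value rests mostly on the myeloid rise of Ctsl (1.40, against 0.13 in progenitors), which was known when the genes were chosen, so it is a description and no independent evidence. For Ctsf the myeloid difference minus the progenitor difference was -1.14 (adjusted p = 0.0264), with Rheb1-/- arrays lower in myeloid cells and higher in progenitors. The interaction of Ctsl kept its side of the threshold in 22 of 22 alternatives, and that of Ctsf lost it in 9 of 22.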

How the results depend on the processing

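No result of a cathepsin feature changed sign with a call. Of 1743 values of the cathepsin features and Rheb under the alternatives, 1654 kept their side of the threshold, 64 lost a call and 25 gained one. Small differences without a call could still change sign among the 1654. That of Ctse in progenitors ran from -0.94 to 0.73. The number of cathepsin features passing between genotypes in myeloid cells was 7, and it was 3 with no filter on dim features, 3 with a replicate block within cell type, 11 with slide as a random block and 4 with the 6 myeloid arrays alone. The number whose genotype difference differed between cell types was 2, and 1 with no filter and 1 with the replicate block. Between cell types the 12 in wild type and 14 in Rheb1-/- were 6 and 8 with 1 feature per gene, which has fewer features to count, and a replicate block within genotype, added after seeing the data, gave 12 and 13. Leaving out 1 array at a time gave 3 to 7 and 1 to 3 in the genotype comparisons, 12 to 13 and 13 to 14 between cell types, and 0 in progenitors, where each of 13 other settings gave 0 as well. In progenitors 25 features of the whole array passed, between 0 and 81 under the other settings and between 6 and 91 with 1 array left out, and 76% of them were higher, against 33.3% with normexp. The Ctsl difference in myeloid cells, known when the genes were chosen, passed in 23 of 23 alternatives (1.32 to 1.49, limma adjusted p from 6.48e-06 to 0.00531). Slide as a fixed block and slide 3 alone gave values only where a slide holds both groups, and a single cell type gave none for differences between cell types. Signal over background limits Ctsk, which could not be fitted.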
